A study of Mus musculus with 195 samples.

Results

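Polyadenylated RNA of mouse embryonic stem cells in 2i medium was read by BATSeq in 2 ways, from whole pools of 48 sorted cells and from single cells. The comparison below sets the 2 pool libraries against the 33 single cells of the same culture type that the authors' table of genes holds, out of 48 such cells sorted and 195 samples in all. The members were chosen by their labels and by that table, not by the level of any gene. The paper discarded cells with few observed transcript molecules, so the cells in that table had passed a limit of depth. Cells came from the 46C embryonic stem cell line, a derivative of E14tg2a with a Sox1-GFP reporter, so every library describes 1 line. All of them, pools and single cells, were grown with the MEK inhibitor PD0325901 at 1 µM, the GSK3 inhibitor CHIR99021 at 3 µM and LIF at 10 ng/ml, and all were sorted in G1. The handling differed in a second respect besides cell number. Per the labels, the pooled cells went into RLT buffer with beta-mercaptoethanol and their RNA was purified on beads, whereas single cells went into a small volume of NP-40 lysis buffer and no RNA was extracted. Cell number and extraction therefore cannot be told apart between these libraries. A pool of 48 ESC-FCS cells, grown with 10% serum and LIF at 10 ng/ml and labelled as lysed without extraction, and its 48 control cells served as a second pool-to-cell comparison.

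The 2i inhibitors hold embryonic stem cells in the naive, preimplantation-like state: blocking MEK removes a signal towards differentiation, and blocking GSK3 stabilizes β-catenin and mimics Wnt signalling. Naive cells express Nanog, Esrrb, Klf2, Tfcp2l1 and their partners, and they keep formative genes such as Dnmt3b and the Nodal antagonists Lefty1 and Lefty2 low. BATSeq primes on the poly(A) tail and counts unique molecular identifiers, so each molecule marks 1 transcript end, whatever the length of the transcript. The protocol is not free of selection by length. Per the paper, amplified cDNA was purified at a bead ratio meant to remove short products, namely by-products of leftover primer.

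The pools held 479391 and 494694 gene molecules, and the summed cells 174371 in library batch 1 (17 cells) and 193854 in batch 2 (16 cells), with 5342 to 21038 molecules per cell (median 10850). Reads per molecule were 3.27 and 4.95 in the pools and 13.2 and 12.5 in the cell batches. No ERCC spike-in molecule was counted in either pool, against 15748 and 15828 in the cell batches. The pools differed from each other by more than sampling noise (chi-square over degrees of freedom 4.87 across 9367 genes, against 1.92 across 5877 genes between the cell batches), so they were kept as 2 samples. The labels name no culture or day for the cells, so the summed cells counted as 1 sample and no p-value was computed. The labels give the pools batch barcodes that also mark neural stem cell libraries of the series. Olig1 and Olig2, transcription factors that mark those cells, were at 0 molecules in both pools. The 15 markers of neural stem cells in the files held 0.130% and 0.154% of the molecules of the pools against 0.0786% and 0.0820% in the batches, with 13 and 11 of them detected in the pools and 7 and 9 in the batches. Their part in the results was not tested. Of these 15 markers 3 (Ckb, Vim and Qk, none of them limited to neural cells) reached 50 molecules. Among 12 fibroblast and feeder markers, Sparc alone reached 50 molecules, with 139 and 130 in the pools and 49 and 44 in the cell batches, and Col1a2 had 0, 2, 0 and 1.

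Gene levels in the pools and in the summed cells diverged widely. A gene was taken as measured with at least 50 molecules over pools and cells, and as higher or lower when its molecules per 1000000 gene molecules, with 1 molecule added, differed at least 2-fold in the same direction in each of the 4 pairs of a pool and a cell batch. Of 5348 genes measured, 1315 were higher in the pools (24.6%) and 499 lower (9.33%). The same 2-fold limit was passed by 875 genes between the 2 pools (16.4%) and by 886 between the cell batches (16.6%), in 1 pair rather than 4. The median gene was 0.77 higher in the pools on the log2 scale, and 0.58 to 0.84 in the single pairs. With factors from the median ratio over genes, that shift was 0.36 and the split became 714 higher and 623 lower. Of the calls by total scaling 72.5% were higher, against 53.4% by median ratios and 62.1% by reads (1881 higher and 1150 lower). The share was 61.5% with at least 10 molecules (1804 and 1131), 45.2% at 4-fold (243 and 295) and 82.7% without cell batch 2 (1892 and 396). Because the pools held more molecules than the cells, a gene could pass the limit of 50 molecules through the pools alone. A lower level in bulk RNA can mean fewer cells with a transcript or less of it per cell, and the pools cannot tell these apart.

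**Figure D1:**
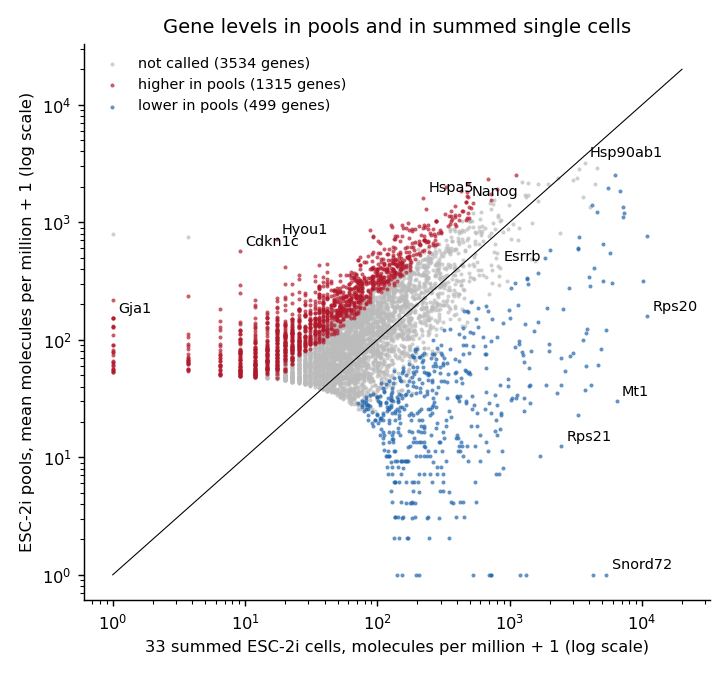
Each point is a gene with at least 50 molecules, with its level in the 33 summed ESC-2i cells on the x axis and its mean level in the ESC-2i pools on the y axis (molecules per 1000000 plus 1, both log scales), coloured by call. The 1315 genes higher in the pools lie above the line of equality, and the 499 lower genes, among them Rps20, Mt1 and Rps21, lie below it.

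The difference went with transcript length. Genes higher in the pools had a median annotated transcript of 2954 nt and 12 of 1315 (0.913%) were under 1000 nt. Genes lower in the pools had a median of 813.5 nt and 325 of 499 (65.1%) were under 1000 nt, while 522 of all 5348 genes measured (9.76%) were. Across genes, the rank correlation of length and log2 ratio was 0.34, given as a description because genes share libraries and are not replicates.

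The trend was steep below 1500 nt and nearly flat above it. In the 84 genes under 500 nt, the median log2 ratio to the summed cells was -4.36 in pool 1 and -5.66 in pool 2. In the 194 genes from 500 to under 750 nt it was -2.76 and -4.66, and in the 244 genes from 750 to under 1000 nt -0.93 and -2.56. The pools thus differed from each other in short transcripts, with pool 2 lower by 1.05, 1.69 and 1.47 in these bins, whereas the medians of the cell batches differed by at most 0.20 in any bin. From 1500 nt on, both pools had medians between 0.62 and 1.27. Molecules of genes under 1000 nt made up 7.42% and 3.33% of the pools (95% exact binomial limits 7.35 to 7.50 and 3.28 to 3.38), below all 33 cells, which ranged from 25.4% to 45.8% with a median of 34.0%. Genes of 2000 nt or more made up 64.1% and 71.4% of the pools and 38.1% and 41.2% of the cell batches. All intervals given here cover counting error only.

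In ESC-FCS, where the pool is labelled as lysed like its cells, the same bins were nearly level. The median log2 ratio of pool to control cells was -0.08 under 500 nt, -0.12 from 500 to under 750 nt, 0.03 from 750 to under 1000 nt and 0.23 from 3000 to under 4000 nt, and genes under 1000 nt held 18.7% of molecules in the pool and 23.1% in the cells. Whether extraction, cell number or another step sets the length trend of ESC-2i was not tested.

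**Figure D2:**
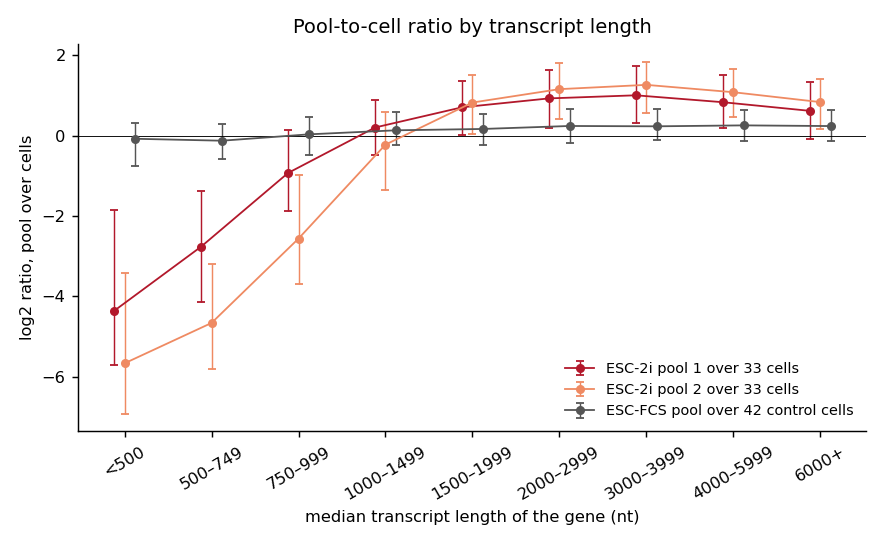
Median log2 ratio of pool to cells (y axis, bars from the lower to the upper quartile over genes) by median annotated transcript length in nt (x axis), for ESC-2i pool 1, ESC-2i pool 2 and the ESC-FCS pool. The ESC-2i curves fall from 1.01 and 1.27 at 3000 to under 4000 nt to -4.36 and -5.66 under 500 nt, and the ESC-FCS curve stays between -0.12 and 0.26.

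To see which genes stood out from transcripts of their own size, each ratio was also set against the median of 1 of 20 groups of like length, a reference chosen after the length trend was seen. By that measure 435 of 5328 genes were higher (8.16%) and 507 lower (9.52%) by at least 2-fold in all 4 pairs, so higher genes were 46.2% of the calls. Of the 1315 genes higher by the plain ratio 317 were also higher by this one, and of the 499 lower genes 254 were also lower. For 63.7% of genes measured, a transcript in the annotation ended at the most used site, so the length of the RNA actually counted was not known for the others.

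The following runs are the 30 transcript bases that end at the most used site, from GENCODE M21 transcripts on GRCm38, shown for genes with few molecules in one kind of library and many in the other, and for the naive factors Nanog and Esrrb. Capitals mark the hexamer AATAAA.
Gja1, chr10:56390380-56390409 (+): tgttctttattcAATAAAattttaatttag
Cdkn1c, chr7:143458349-143458378 (-): cgtccgccaggttctaAATAAAgaggccca
Hyou1, chr9:44392327-44392356 (+): ttgagaaactgtttcAATAAAatattcttt
Lefty2, chr1:180899064-180899093 (+): ctgcatttggagtatcAATAAAagactggg
Lefty1, chr1:180938368-180938397 (+): tgctagatgtgAATAAAatatgctttgttt
Nanog, chr6:122714600-122714629 (+): gtttaaacaaAATAAAacactaattttacc
Esrrb, chr12:86521590-86521619 (+): atgtatctgaaatctAATAAAtaaggaaag
Mt1, chr8:94180294-94180323 (+): agtacgtgaatAATAAAagcctgtttgagt
Rps21, chr2:180258408-180258437 (+): gttacaAATAAAagttttaagtacctgtga
Rps18, chr17:33952003-33952032 (-): ctttgctgttAATAAAtagtttatatacct
The distance to the nearest annotated transcript end was 10 nt or less for each of them. AATAAA or ATTAAA, searched on the transcript strand only, stood in the 50 bases before the most used site in 84.3% of genes higher in the pools (1080 of 1281 with a window), 89.1% of lower genes (386 of 433) and 85.4% of genes with neither call. The same window held either hexamer at 60.9% of all annotated transcript ends and in 3.42% of windows ending 500 bases before them.

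Ribosomal protein genes, which encode the structural proteins of the ribosome and have short mRNAs, were the list with the most genes lower in the pools. Of 83 in the files 73 were measured, 64 were lower, and none was higher, against 9.33% lower and 24.6% higher of all genes measured. They held 2.97% and 1.18% of the molecules of the pools against 20.0% and 16.5% in the cell batches. Their median log2 ratio was -3.78, and relative to genes of like length it was -1.45, with 39 lower, against 9.52% of all genes by that measure. In ESC-FCS the median over 76 of these genes was -0.32. The median lay 4.55 below that of all genes (-4.55), and without pool 1 it was -5.99, since pool 2 was the lower pool. Ribosomal protein genes have many near-identical processed pseudogenes, and the authors removed reads that aligned to several places, so their counts are uncertain in every library.

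Rps21 had 9 and 2 molecules in the pools and 465 and 433 in the cell batches, with 4 to 55 per cell (median 27). The groups did not overlap, which follows from its choice as 1 of the 10 called genes with the lowest ratios. The level of Rps21 was 214 times higher in the cells (interval 120 to 434). Rps18 had 7 and 2 in the pools and 322 and 299 in the batches, a ratio of 181 (95.5 to 401). Rps20, the most abundant gene of the cells, had 131 and 21 molecules in the pools and 1997 and 2040 in the batches, a ratio of 69.5 (59.7 to 83.2), with 50 to 209 per cell (median 127). Its annotated median of 3706 nt does not describe the RNA counted, since its most used site lay 3140 nt from the nearest basic transcript end, and its place among genes of like length is therefore not informative. Rpl13 followed in the cells, with 2059 and 1965 molecules against 624 and 115, a ratio of 14.3 (13.3 to 15.6). Rpsa, with a median transcript of 1768 nt, had 1156 and 645 molecules against 1215 and 1279, a ratio of 3.65. Rpl4, of 1538 nt, had 1271 and 1204 against 1161 and 1124, a ratio of 2.44, although 96.0% of its molecules lay at positions also listed under Map2k1. Among the 9 members with no call, Rplp0 had 1225 and 842 molecules against 819 and 794, and Rps6 had 35 and 52 against 6 and 8.

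Mt1 and Mt2 encode metallothioneins, small cysteine-rich proteins that bind zinc and copper. Mt1 had the largest deficit among genes with at least 500 molecules and no shared position, with 21 and 7 molecules in the pools against 1052 and 1306 in the cell batches, with 6 to 145 per cell (median 67), a level 221 times higher in the cells (154 to 336). Mt2 had 14 and 7 against 529 and 678, a ratio of 151 (99.0 to 247). Their median transcripts were 633 and 450 nt, and relative to genes of like length their log2 ratios were still -3.85 and -3.27. In ESC-FCS the log2 ratios of the pool to its cells were -0.21 for Mt1 and 0.20 for Mt2. Hspe1, the small mitochondrial co-chaperonin, was 20.1 times higher in the cells (15.6 to 27.0), with 50 and 11 molecules against 196 and 273, while its partner Hspd1 was 3.80 times higher in the pools (3.25 to 4.47).

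Several of the lowest ratios stood at positions that the files list under more than 1 gene. Snord72, a small nucleolar RNA within Rpl37, had 0 molecules in both pools and 991 and 978 in the cell batches, at least 1736-fold lower against a floor of 3 molecules over the group. The position that carried them on chromosome 15 was also listed under Rpl37, with 63 and 16 molecules in the pools and 1093 and 717 in the cells. Snora75, with 125 and 139 molecules in the cells and none in the pools, shared its position with Ncl. On the mitochondrial genome, 1 position was listed under mt-Tl2 in pool 1 (300 molecules), under mt-Co2 in pool 2 (307) and under several names in the cells, so mt-Tm and mt-Tg (0 in the pools) and mt-Nd6 (0 in the cells) cannot be compared by name. Positions of this kind held 4.03% and 3.83% of the molecules of the pools and 7.77% and 6.53% of those of the cell batches. They made up 10% or more of 283 of the genes measured (5.29%), 63 of those higher and 38 of those lower. Without them 1195 genes were higher and 468 lower.

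Several genes with the largest excess in the pools had no molecule in the 33 cells. Gja1, the gap junction protein connexin 43, had 81 and 66 molecules in the pools and 0 in every cell, at least 18.5-fold higher. In ESC-FCS the control cells held 42 molecules and their pool 51. Cdkn1c, an imprinted inhibitor of cyclin-dependent kinases, had 247 and 306 molecules in the pools and 2 and 1 in the batches, in 2 of 33 cells. Its level was 69.6 times higher in the pools (23.7 to 339). Lefty2, a secreted Nodal antagonist, had 49 and 77 molecules in the pools and none in the cells, at least 15.9-fold higher. Aurkc, the Aurora kinase of germ cells, had 58 and 48 and none, at least 13.4-fold higher. Med24, a Mediator subunit, had 105 and 124 against 0 and 1, a ratio of 86.5 whose interval ran from 15.4 to 3434. Sox11 (46 and 41), Igfbpl1 (37 and 38) and Manba (39 and 36), the last the lysosomal beta-mannosidase, also had none in the cells. In all of these both pools lay above both batches, but that order follows from how the genes were picked. They were picked as higher in the pools in every pair or as absent from the cells.

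For some of the names the molecules came from outside the annotated end. The 80 and 68 molecules of Tlr4 came mainly from 1 position inside an intron, with 74 and 59. The 80 and 69 of Zscan4e came almost wholly from 1 position downstream of the gene, with 80 and 68, and the gene has near-identical copies. Gm21761 (106 and 16) was also counted downstream. Eif4ebp3 (67 and 56) shared every position with Ankhd1.

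Among genes with a call and at least 500 molecules in all, Hyou1, a chaperone of the endoplasmic reticulum, came next to Cdkn1c in its excess in the pools. It had 335 and 365 molecules in the pools and 2 and 4 in the batches, with at most 1 molecule in a cell and 6 of 33 cells with any, a ratio of 44.1 (20.2 to 121). Its site and hexamer are those shown above, and it lay at 4432 nt among genes whose median ratio was far smaller, 4.18 above them on the log2 scale. In ESC-FCS its counts were 3 in the pool and 13 in the control cells. Atic, an enzyme of purine synthesis, followed with 369 and 473 against 14 and 18, a ratio of 9.93 (6.99 to 14.6). Tuba1a, an alpha-tubulin, had 336 and 409 against 12 and 22 (8.27-fold, 5.87 to 12.1). Klhl13, an adaptor of a ubiquitin ligase, had 317 and 610 against 19 and 27 (7.58-fold, 5.67 to 10.5).

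Naive pluripotency factors were found in both kinds of library, in unequal proportion. All 15 on the list were detected in both pools and in the 33 cells, 14 were measured, 2 were higher, 1 was lower and 11 had no call. Over all genes measured 24.6% were higher and 9.33% lower. The list's median was 0.40 below that of all genes on the log2 scale, and 0.24 above it when reads replaced molecules. Nanog, the homeobox factor of the naive network, had 706 and 751 molecules in the pools and 73 and 99 in the batches, with 0 to 15 per cell (median 4) and 32 of 33 cells with any. Its level was 3.20 times higher in the pools (2.73 to 3.77). Tcl1, a coactivator of Akt, had 145 and 85 against 10 and 15, a ratio of 3.49 (2.30 to 5.49).

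The other naive factors bracketed the median gene. Klf5, a Krüppel-like factor, was lower, with 34 and 25 molecules against 26 and 37, a ratio of 0.355 (0.244 to 0.513). Esrrb, an orphan nuclear receptor, had 233 and 176 against 140 and 160, with 2 to 22 per cell (median 9), a ratio of 0.517 (0.443 to 0.600) and no call. Tfcp2l1, a CP2-like transcription factor, had 524 and 481 against 123 and 195, a ratio of 1.20 (1.05 to 1.36), which fell below 1 by median-ratio scaling (log2 -0.15). Ratios without a call were 0.734 for Klf2, 1.64 for Fgf4, 1.86 for Tbx3, 0.644 for Zfp42 and 1.99 for Prdm14. Dppa3, a maternal factor that guards DNA methylation, had 81 and 19 against 2 and 12 molecules, the latter in 4 cells.

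The median of core factors lay below that of all genes, while single members went either way. Of 19 on the list 12 were measured, with 2 higher, 1 lower and 9 with no call, and a median 1.02 below that of all genes. Over all genes measured 24.6% were higher and 9.33% lower. Sox2, the partner of Pou5f1, was lower, with 28 and 20 molecules against 31 and 29, a ratio of 0.303 (0.203 to 0.450). Pou5f1 itself had 9 and 4 against 11 and 8, too few to be measured here. Dppa2 and Dppa4, which form a chromatin heterodimer, were both higher, with 80 and 111 against 10 and 6, and 72 and 92 against 12 and 9, ratios of 4.50 (2.71 to 8.06) and 2.95 (1.87 to 4.90). Sall4, a zinc finger partner of Nanog, had 498 and 355 against 70 and 68, a ratio of 2.34 (1.95 to 2.82) and no call. Tdgf1, a Nodal co-receptor, had 150 and 177 against 96 and 97, a ratio of 0.640.

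Formative and primed genes, which 2i medium keeps low, were detected in both kinds of library. Of 11 in the files 9 were found in each pool and 8 in the 33 cells together. In all 6 reached 50 molecules, and 5 of these were higher, against 24.6% of all genes measured. Their median was 1.12 above that of all genes and 0.99 relative to genes of like length. Nodal, the TGF-beta family ligand, had 175 and 176 molecules against 26 and 27, a ratio of 2.50 (1.87 to 3.41). Its antagonists Lefty1 (41 and 30) and Lefty2 had no molecule in any of the 33 cells. Dnmt3b, a de novo DNA methyltransferase, had 89 and 83 against 10 and 11, a ratio of 3.10 (1.96 to 5.13). Dnmt3a had 26 and 33 against 2 and 2, a ratio of 5.57 (2.07 to 21.1), and Dnmt3l, their cofactor, 55 and 51 against 10 and 14 with no call. Fgf5, a primed marker, was at 0, 0, 0 and 1, and Otx2 at 0, 6, 0 and 1. All of the 6 except Nodal would have missed the limit on the cells alone, so their direction was partly set by which genes were measured.

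**Figure D3:**
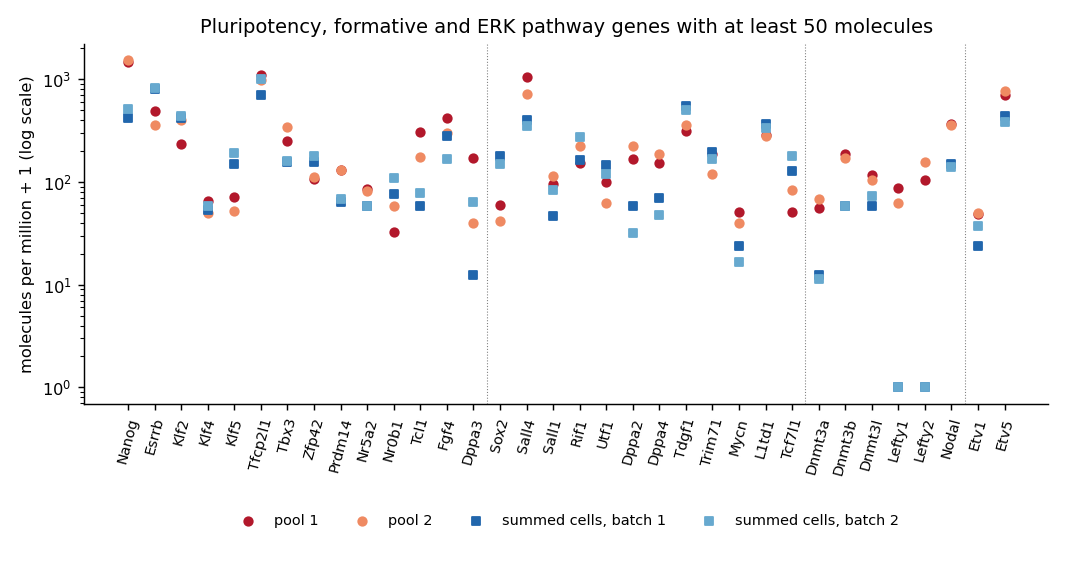
Level of each gene with at least 50 molecules (y axis, molecules per 1000000 plus 1, log scale) in pool 1, pool 2 and the 2 summed batches of cells, for naive factors, core factors, formative genes and ERK targets from left to right between dotted lines. Nanog, Tcl1, Dppa2, Dppa4, Dnmt3b and Nodal lay higher in both pools, Klf5 and Sox2 lower, and Lefty1 and Lefty2 had no molecule in the cells.

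Targets of the inhibited pathways were mostly rare. Of 13 ERK targets in the files Etv5 and Etv1 were measured, neither with a call. Etv5, an ETS factor, had 338 and 376 molecules against 76 and 73, a ratio of 1.81 (1.52 to 2.18). Dusp6, the phosphatase that dampens ERK and a direct readout of it, had 13 and 27 molecules in the pools and 0 in the cells, where a count of 0 allows up to 3. Dusp4 had 6 and 8 and also none, and Egr1 had 2, 0, 1 and 1. Of 13 Wnt targets 5 were measured and 3 were higher, against 24.6% of all genes measured, and 1 was higher relative to genes of like length. Those 3 reached 50 molecules only through the pools. Sp5 had 40 and 65 against 4 and 7 (ratio 3.60, 1.94 to 7.45), Cdx1 had 19 and 30 against 1 and 2 (6.15, 1.99 to 31.0), and Nkd1, a Wnt antagonist, 19 and 35 against 0 and 1 (20.3, 3.51 to 821). Axin2, the usual readout of β-catenin, had 5 and 19 against 1 and 3 and was not measured. Of 15 LIF and BMP pathway genes 5 were measured and 2 were higher, against 24.6% of all genes measured. These were Stat3, with 50 and 55 against 4 and 7, and the BMP receptor Bmpr1a, with 34 and 45 against 1 and 4. Both reached 50 molecules only through the pools, and relative to genes of like length no gene of this list was higher. The BMP target Id1 had 0, 0, 1 and 0 molecules, and Id3 had 6 and 3 molecules in the pools and 14 and 5 in the cells. Of 9 germ layer and extraembryonic regulators in the files Tfap2c alone was measured, with 159 and 156 against 15 and 18 (3.61-fold higher, 2.52 to 5.33), while Gata4 had 1, 1, 0 and 1. Tfap2c too reached 50 molecules only through the pools.

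The medians of Polycomb genes and of DNA methylation and demethylation enzymes lay below that of all genes, while single members went either way. None of 12 Polycomb genes measured was higher. Over all genes measured 24.6% were higher and 9.33% lower. Rbbp4, a histone-binding subunit, was lower, with 52 and 49 molecules against 72 and 95 (ratio 0.229, 0.177 to 0.294), and Phc1 had 291 and 260 against 60 and 40 with no call. Their median was 0.61 below that of all genes. Of 6 DNA methylation and demethylation enzymes measured Dnmt3a and Dnmt3b were higher and Tet1 lower, with 20 and 26 against 25 and 28 (ratio 0.328, 0.216 to 0.496). Dnmt3a and Dnmt3b reached 50 molecules only through the pools. Uhrf1 (170 and 111 against 69 and 87) and Dnmt1 (35 and 85 against 32 and 30) had no call. No germline or cleavage-stage gene on the list reached 50 molecules. Zscan4d had 19 and 21 molecules and Zscan4c 9 and 25 in the pools, both with none in the cells.

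Cell cycle genes were compared because all cells were sorted in G1. Of 15 S phase genes measured 3 were higher and 1 lower, and of 18 G2 and M phase genes 5 were higher and 1 lower, against 24.6% and 9.33% of all genes measured. Cdc20, an activator of the anaphase-promoting complex, had 409 and 413 molecules against 30 and 37, with 0 to 10 per cell (ratio 4.64, 3.61 to 6.04). Aurka, a mitotic kinase, had 100 and 91 against 3 and 4 (10.3, 4.91 to 26.0), and Plk1 had 138 and 115 against 13 and 5 (5.32, 3.29 to 9.11). Ube2c, a short transcript, was lower, with 34 and 22 against 28 and 40 (0.312, 0.215 to 0.450). Ccne1, the G1/S cyclin, was higher, with 110 and 133 against 5 and 13 (5.10, 3.16 to 8.76), and Mcm3, a subunit of the replicative helicase, with 522 and 481 against 50 and 52 (3.72, 3.03 to 4.60). Aurka, Plk1 and Ccne1 reached 50 molecules only through the pools, so their direction was partly set by which genes were measured. The medians of both lists lay above that of all genes, by 0.21 for S phase and 0.46 for G2 and M, and relative to genes of like length S phase turned to -0.16 and G2 and M stayed at 0.43.

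Metabolic and protein folding genes of high abundance split by member. Of 20 heat shock proteins and chaperones 9 were higher and 1, Hspe1, lower, against 24.6% and 9.33% of all genes measured. Relative to genes of like length 2 of them were higher and 2 lower. Hspa5, the Hsp70 of the endoplasmic reticulum, had 763 and 805 molecules against 45 and 36, with 0 to 11 per cell (median 2), a ratio of 7.32 (5.85 to 9.27). Hsph1, a cytosolic nucleotide exchange factor, had 381 and 539 against 24 and 32 (6.20, 4.74 to 8.29). Hsp90ab1, the gene with the most molecules in both pools, had 1602 and 1527 against 677 and 678, a ratio of 0.874 (0.819 to 0.931) and no call. Of 15 glycolysis genes 4 were higher, against 24.6% of all genes measured, and relative to genes of like length none was higher and 1 was lower. Among the 4 were the glucose transporter Slc2a3, with 976 and 1064 against 70 and 108 (4.33, 3.72 to 5.08), and Pfkl, with 153 and 195 against 15 and 7 (5.97, 3.89 to 9.67). Gapdh, with many pseudogenes, had 208 and 97 against 215 and 137 (0.330, 0.280 to 0.383) and no call. Of 22 translation factors 4 were higher and none lower, against 24.6% and 9.33% of all genes measured. Eef1a1 had 666 and 926 against 655 and 661, a ratio of 0.456. The medians of glycolysis genes and translation factors lay 0.31 and 0.36 below that of all genes by molecules, and 0.28 and 0.54 above it by reads.

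The remaining lists differed in how many of their genes had a call. Over all genes measured 24.6% were higher and 9.33% lower. Of 14 cleavage and polyadenylation factors measured 3 were higher: Cpsf2 with 107 and 133 molecules against 6 and 2 (11.3, 5.66 to 26.6), Cpsf4 with 104 and 65 against 3 and 11, and Cstf2 with 111 and 107 against 12 and 17. Those 3 reached 50 molecules only through the pools, and relative to genes of like length 1 gene of the list was higher. Of 6 immediate early and stress genes measured Hsph1 and Dusp1 were higher, Dusp1 with 38 and 52 against 3 and 3, while Fos had 1, 3, 5 and 2 molecules. Dusp1 too reached 50 molecules only through the pools. Of 9 nuclear long noncoding RNAs 8 were lower, with Malat1 at 40 and 11 against 73 and 100 and Gas5 at 16 and 12 against 44 and 54. Their median turned from 3.70 below that of all genes to 0.48 above genes of like length. Malat1 is known as a transcript of several kilobases, but its median annotated length was 606 nt, so that reference is uncertain for this list. Of 9 genes of the mitochondrial genome measured mt-Nd2 and mt-Nd1 were lower and mt-Nd6 higher, subject to the shared positions above.

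At an equal number of molecules the pools did not have more genes detected with at least 1 molecule than the cell batches, although reads per molecule differed between them. The pools had 14998 and 14834 genes with at least 1 molecule, against 12608 and 13099 in the cell batches and 15340 in the 33 cells together. Thinned to 174371 molecules, the expected numbers were 12246 and 12079 in the pools and 12608 and 12768 in the batches. With at least 2 molecules they were 9491 and 9415 in the pools and 9261 and 9642 in the batches, so pools and batches then had no fixed order. The composition of these genes differed. Of genes under 1000 nt 1464 and 1206 were expected in the thinned pools, and 2356 and 2251 in the batches. Of genes of 2000 nt or more the numbers were 7680 and 7837 in the pools, and 7164 and 7380 in the batches. The next counts are at the full depth of each library, which was greater in the pools. Of 12903 genes in both pools 1718 were in no cell, with a median length of 2268 nt and 77.4% protein coding. Of 10367 genes in both batches 568 were in neither pool, with a median of 499 nt, 29.4% protein coding and 392 under 1000 nt. For low-abundance regulators, again thinned to 174371 molecules, the expected number detected of 11 formative genes was 8.27 and 8.81 in the pools against 6.00 and 6.69 in the batches. Of 13 ERK targets it was 11.4 and 10.8 against 8.00 and 9.60. Core factors went the other way, with 16.7 and 17.2 of 19 in the pools and 18 and 18 in the batches.

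At the top of the abundance range, molecule counts of the pools fell short of their reads. To keep binning and ratio apart, genes of 2000 nt or more were binned by molecules in cell batch 1 and the ratio taken over batch 2. From 1 to 4 molecules the summed ratio was 1.67 in pool 1 and 1.96 in pool 2, and from 50 to 99 it was 1.55 and 1.64. In the 37 genes with 100 molecules or more, it was 0.824 and 0.776. By reads, the same bin gave 1.44 and 1.49. Reads per molecule in that bin were 6.45 and 10.7 in the pools, against 2.60 and 4.03 at 1 to 4 molecules, while in cell batch 2 they were 14.1 and 11.8. Identifiers of a gene that differed at 1 base were merged by the authors, and each pool carried the RNA of 48 cells under 1 set of identifiers. The part of that merging in the lower counts was not tested.

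**Figure D4:**
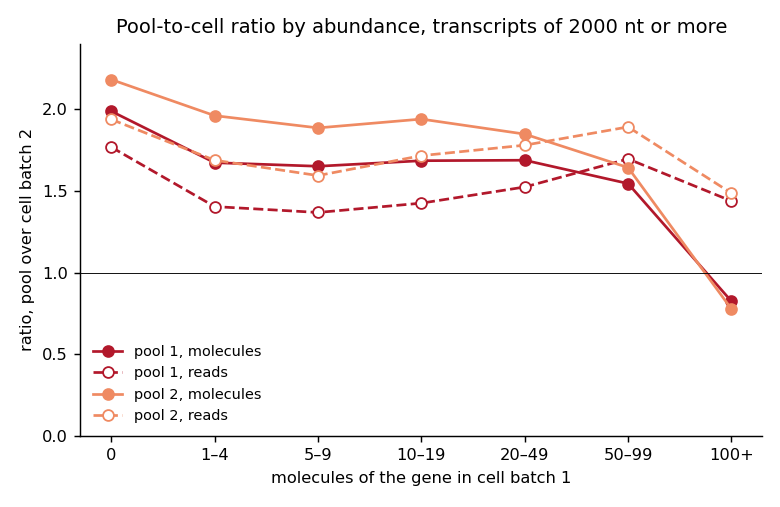
Ratio of the summed level of genes of 2000 nt or more in each pool to that in cell batch 2 (y axis), by molecules of the gene in cell batch 1 (x axis), from molecules (filled) and reads (open). Counted as molecules the ratio drops to 0.824 and 0.776 in the bin of 100 or more, and counted as reads it is 1.44 and 1.49 there.

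Across 19404 genes, Pearson's r of log10(molecules + 1) was 0.921 between the pools and 0.873 between the cell batches. Between kinds of library it was 0.762 for pool 1 and the summed cells, 0.705 for pool 2 and 0.737 for the summed pools. Among measured genes the last value was 0.281, and among those of 2000 nt or more 0.574. The ESC-FCS pool and its control cells gave 0.911, and the ESC-2i cells gave 0.838 with the ESC-FCS control cells, a different medium. These are descriptions across genes.

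The calls were also read in ESC-FCS, in libraries that played no part in them. Of 4056 genes with enough molecules there, 404 were at least 2-fold higher in the pool (9.96%) and 149 lower (3.67%), with a median of 0.19. The 733 genes measured there that were higher in the ESC-2i pools had a median of 0.32, 12.6% were higher and 2.05% lower. The 418 that were lower in ESC-2i had a median of -0.10, and 8.13% were lower and 2.87% higher. In ESC-2i the medians of the called genes were 1.97 and -3.13.

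Polyadenylation sites fell into the same classes in both kinds of library, but not in the same shares. Of molecules without spike-ins, 58.9% and 57.9% in the pools and 55.3% and 55.4% in the cell batches lay within 10 nt of an annotated end, and 16.4% to 18.3% lay 10 to 200 nt from one. Sites elsewhere in the terminal exon took 18.1% and 18.5% in the pools (exact limits 18.0 to 18.2 and 18.4 to 18.6) and 14.2% and 14.6% in the batches. Both pools lay above every one of the 33 cells, which ranged from 12.8% to 15.8%. In genes of 2000 nt or more the shares were 22.9% and 22.6% against 21.1% and 21.5%, and the log2 ratio of pools to cells was 0.090 there against 0.34 over all genes. Intronic sites took 0.878% and 0.890% against 1.69% and 1.61%, within the range of the cells (0.773% to 2.83%), and in the longer genes 1.05% and 0.971% against 3.51% and 3.03%.

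Intergenic positions showed the widest gap. They held 0.334% and 0.324% of the molecules of the pools (exact limits 0.318 to 0.351 and 0.308 to 0.340) and 4.70% and 4.25% of those of the batches, and every cell, from 3.44% to 7.83%, lay above both pools. The summed cells were at 13.6 times the pools. In ESC-FCS the control cells, at 2.34%, were at 3.09 times their pool, at 0.757%. These molecules were scattered: the pools had 1321 and 1320 intergenic positions and the batches 5555 and 5526, with 1 molecule at 89.0% and 90.0% of positions in the pools and 84.6% and 85.1% in the cells. The most used position of the cells held 139 and 208 molecules, against 8 and 3 in the pools. Whether such molecules are transcripts, or how RNA extraction bears on them, was not tested.

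**Figure D5:**
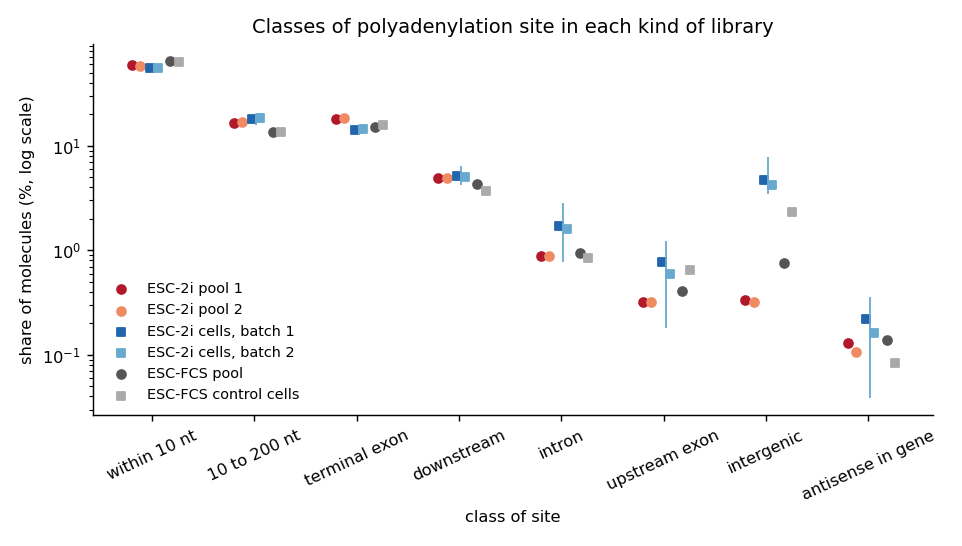
Share of molecules in each class of site (y axis, percent, log scale) in the ESC-2i pools, the summed ESC-2i cell batches, the ESC-FCS pool and its control cells; vertical lines span the 33 ESC-2i cells. Intergenic sites are at 0.334% and 0.324% in the pools and 4.70% and 4.25% in the cells, and terminal exon sites are above every cell in both pools.

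Sites seen in both kinds of library carried a poly(A) signal more often than sites seen in 1 kind. Taking sites within 12 nt as the same, 20501 were in both, 44233 in pools only and 18957 in cells only. Where a window of 50 bases could be read from a transcript, 70.9% of sites in both held AATAAA or ATTAAA, against 36.0% of sites in pools only and 28.1% of sites in cells only (exact limits 70.2 to 71.6, 35.4 to 36.6 and 27.0 to 29.1). With at least 5 molecules the shares were 75.8%, 57.2% and 51.5%. Sites of 1 kind were mostly of few molecules, with 99439 molecules over 44233 sites in pools only, and detection in both kinds itself depends on abundance.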

How the data were processed

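As deposited by the authors, the values are raw counts of UMIs and of reads per polyadenylation site, made after alignment to GRCm38, removal of multiply aligned reads and merging of UMIs of a gene at a Hamming distance of 1. The submitters' processing notes name HTSeq and R 3.0.2. Samples were grouped by label, and library batches of cells by batch barcode. Headers of the tables of sites, pools and cells alike, give 2 columns each other's name, so these were read by content. Counts were summed per gene without antisense sites and divided by all gene molecules of the library. The 74 other columns of the table of genes are cells of other populations and were not used. ESC-FCS control cells entered with at least 1000 gene molecules (42 cells). Ratios carry conditional binomial intervals and shares Clopper-Pearson intervals, both at 95%, and a group at 0 was given a floor of 3 molecules. No test was run between pools and cells.

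Members, lists and comparisons were chosen with earlier results of these data known. Named genes are the 10 higher and the 10 lower with the largest ratio, 5 more each with at least 500 molecules, the 10 most abundant in the cells, up to 10 seen in 1 kind of library alone, and list members by molecules. Other list members singled out, and comparisons by like length, were chosen after their values were seen. Some genes that the rule names are not reported here. Lengths are medians over the GENCODE M21 transcripts of a gene. The rule for calls, but not the counting, was run on simulated counts. These held sampling noise only, which is less than the spread between the real pools. Alternatives were other folds, minima, scalings, reads, all 48 cells, antisense sites and each library left out. Python 3.11.15, numpy 2.4.6, pandas 2.3.3, scipy 1.17.1 and matplotlib 3.10.9 were used.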

Additional observations from a re-analysis of the deposited data

Results flagged for a closer look

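Counted as molecules over all genes, 6 classes of site moved one way from cells to pools in each pair of ESC-2i libraries. They moved the other way in ESC-FCS, where 1 pool was set against the summed control cells. None of these differences between the media was tested, and the ESC-FCS value has no replicate. Terminal exon sites were 0.31 to 0.38 higher in the ESC-2i pools on the log2 scale and -0.063 in ESC-FCS. Sites downstream of annotated ends were at -0.08 to -0.03 in ESC-2i and 0.22 in ESC-FCS. Intronic sites were at -0.95 to -0.85 and 0.15. For downstream and intronic sites the contrast was absent in the longer genes used above for site shares. There the ESC-FCS pool lay below its cells, as the ESC-2i pools did. Its shares were 4.86% against 5.04% for downstream sites and 1.37% against 1.40% for intronic sites. Terminal exon sites still went opposite ways in those genes, with 19.9% in the ESC-FCS pool and 20.75% in its cells. Antisense sites within genes were at -1.07 to -0.33 in ESC-2i and 0.72 in ESC-FCS, antisense sites upstream of genes at -1.80 to -1.49 and 0.86, and antisense sites downstream of genes at -0.96 to -0.71 and 1.66. The antisense classes are small, with 138 molecules downstream of genes in the 33 cells and 20 in the ESC-FCS control cells. By reads, 2 of the ESC-2i values took the sign that ESC-FCS had by molecules. These were sites downstream of annotated ends, at 0.09, and antisense sites within genes, at 0.80.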

How the results depend on the processing

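Each of 117 results was recomputed, giving 1063 values, of which 290 moved beyond the spread and 29, of 22 results, had the other sign; these were list medians, single genes without a call and 3 shares of site classes. By reads the shares of sites within 10 nt of an end turned to -0.01, downstream sites to 0.09 and antisense sites within genes to 0.80 (log2). Without cell batch 2 or pool 1 the median of immediate early genes turned from -0.17 to 0.37 and 0.12, and without cell batch 1 that of cleavage factors from 0.18 to -0.03, or -0.16 by like length. From 1814 genes with a call, 538 were left at 4-fold (243 higher, 295 lower), 2935 called with at least 10 molecules (1131 lower), 719 with at least 200 (562 higher, 157 lower), 3031 by reads (1150 lower), and 2022 were higher at 1.5-fold. Median-ratio scaling left 714 higher with a median of 0.36, and reads gave a median of 0.25. In alternatives chosen after seeing the data, 942 genes were called relative to like length (435 higher, ribosomal median -1.45), and 900 without transcripts under 1000 nt (593 higher, 307 lower). Leaving out 1 library gave 1599 to 2288 calls, 1107 to 1892 higher and 396 to 621 lower, a length difference (2000 nt or more minus under 1000 nt) of 2.99 to 5.36 around 3.42 on the log2 scale, and a ribosomal median of -5.99 to -3.76. The abundance drop was -1.18, -0.080 by reads, and -1.34 to -1.02 without either pool. Agreement was 0.836 between pools with at least 50 molecules and 0.984 between batches without the log. Between pools and cells it was 0.434 without the log and 0.281 with at least 50 molecules. The log2 ratio of terminal exon shares was 0.34, 0.31 by reads and 0.090 in genes of 2000 nt or more. That of intronic shares was -0.90 and -1.69 in those genes, and that of intergenic shares -3.76 and -2.16 by reads. The causes were not tested. No paired analysis was possible because pools and cell batches share no label that ties one to the other, and no test was run. With 2 pools, the spread between pools rests on 1 difference.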

Other observations

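Further groups, chosen after their values were seen and given as counts alone, are described here. Of 69 nuclear genes of the respiratory chain and ATP synthase, none was higher and 53 were lower (76.8%), against 24.6% and 9.33% of all genes measured. Their median transcript was 745 nt and their median log2 ratio -3.54. Relative to genes of like length the median was -1.15 with 22 lower, and in ESC-FCS it was -0.06. Cox5b, a cytochrome c oxidase subunit, had 22 and 8 molecules in the pools and 229 and 243 in the cell batches, and Cox6a1 had 49 and 5 against 215 and 299. The most abundant members had no call, with Atp5b at 1097 and 1149 against 558 and 554 and Atp5a1 at 721 and 890 against 228 and 263.

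Genes for folding, translocation and glycosylation in the endoplasmic reticulum gave 16 of 33 (48.5%) higher in the pools, 2 lower (Dad1 and Sec61b) and 15 with no call. Relative to genes of like length 9 were higher and 2 lower. Calr, a calcium-binding chaperone, had 644 and 610 molecules against 44 and 41 (5.58-fold higher), and Sec61a1, the translocon channel, 339 and 331 against 14 and 23 (6.85-fold). Their median log2 ratio was 1.41, 0.60 relative to genes of like length and 0.39 in ESC-FCS. Of 72 solute carrier genes 31 were higher (43.1%) and 2 lower, but relative to genes of like length 6 were higher and 7 lower. Among the 31 was the amino acid transporter Slc38a2, at 169 and 236 against 4 and 3 (21.8-fold). Of 13 laminin, collagen and integrin chains 9 were higher (69.2%), 4 of them relative to genes of like length, and none lower, among them Itgb1, at 121 and 105 against 4 and 9 (6.58-fold), and Col18a1, at 138 and 138 against 5 and 9 (7.45-fold). Of 78 Zfp zinc finger genes 13 were higher (16.7%) and 2 lower, and of 32 proteasome subunits 4 were higher and 4 lower. Over all genes measured 24.6% were higher and 9.33% lower.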
